A study of Mus musculus with 9 samples.

Results

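Platelets act through a small set of receptors on their surface, and the genes for 9 of them were followed here in cultured mouse LSK cells. The 9 genes were taken by their names in the array files and are Gp1ba, Gp1bb, Gp5, Gp9, Gp6, Clec1b, Itga2b, Itgb3 and Selp. All 9 were on the array and all 9 passed the filter on dim probes, out of 23027 genes or regions tested. LSK cells are marrow cells sorted as free of lineage markers and positive for Sca1 and cKit, a fraction enriched in blood stem cells and early progenitors.

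RNA was measured on 9 one-colour Agilent arrays, 3 for each of 3 groups. The Drosha KO group came from mice with both Drosha alleles floxed and the Dicer KO group from mice with both Dicer alleles floxed, and the third group is labelled control with no floxed allele named. Every group, controls included, carried Gt(ROSA)26Sor CreERT2, a Cre recombinase that tamoxifen switches on in any cell type, and came from female mice. The sorted cells of every group were cultured for 72 h with 250 nM 4OH-tamoxifen, 10 ng/mL IL-3, 10 ng/mL IL-6, 50 ng/mL SCF and 10% serum. No age is given in the labels. Deletion thus took place in the dish, in whatever cells the sorted progenitors gave rise to, and the labels do not say whether the 3 repeats of a group came from separate animals, so p-values measure only the spread between these samples.

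Drosha cuts primary microRNA transcripts in the nucleus and Dicer cuts the resulting hairpins in the cytoplasm, so loss of either removes most microRNAs. Megakaryocytes, the bone marrow cells that shed platelets, switch on the platelet receptors as they mature. At a wound the glycoprotein Ib-IX-V complex holds platelets on von Willebrand factor, glycoprotein VI and the podoplanin receptor encoded by Clec1b signal inward, the integrin of Itga2b and Itgb3 then binds fibrinogen, and P-selectin, encoded by Selp, is brought to the surface from granules. Itga2b is also made by early blood progenitors, and Selp by endothelial cells.

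The Drosha label was borne out by its own gene, which averaged 9.01 ± 0.27 in Drosha KO and 11.92 ± 0.10 in control arrays on the authors' log2 scale (SD, n = 3 each), a 7.52-fold lower level with limma's adjusted p = 0.000152. Dicer1 averaged 9.05 ± 0.11 in Dicer KO and 10.29 ± 0.32 in control arrays, a difference of -1.24 with adjusted p = 0.118, and whether its probe lies inside the deleted part is not given in the sources used here. Kit and Ly6a, which encode cKit and Sca1, were well above background on all 9 arrays. Markers of megakaryocytes, neutrophils, monocytes and mast cells were measured as well, and they are given after the receptors.

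Some control arrays stood apart. The scanner file of control 2 had 19.2% of its spots marked non-uniform, against at most 0.046% on any other array, and its median signal was 529, against 31.0 to 53.8 elsewhere. The authors' column for control 2 correlated with that file at r = 0.770, while the other columns correlated with theirs at 0.974 to 0.985 across probes. In the authors' values the columns of control 2 and control 3 were a close pair (r = 0.9944 across genes) and lay apart from the other 7 columns (r = 0.9726 to 0.9823), whereas those 7 correlated with each other at 0.9879 to 0.9955. Control 1 was closest to Dicer KO 3 (r = 0.9945). Control 3 was the one array on slide 2, and which array the column of control 2 was made from is not given in the sources used here. For the receptor genes, comparisons with control are therefore given with and without these arrays. The marker lists and the other named genes were compared with all controls only, so their dependence on these arrays was not tested.

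None of the 9 receptor genes passed the test in any comparison, yet 7 of them read lower on every Dicer KO array than on every control array. Those 7 were Gp1ba, Gp1bb, Gp9, Gp6, Clec1b, Itgb3 and Selp, and their differences lay between -1.46 and -0.53 on the log2 scale. Non-overlap in that direction was found for 9.94% of all genes tested. The test used limma with Benjamini-Hochberg adjustment over all 23027 genes and a threshold of 0.05, and it called 0.0174% of genes for Dicer KO against control in either direction. For the 7 genes the order of the group means was Dicer KO lowest, Drosha KO in between and control highest. Gp5 and Itga2b did not follow that order.

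**Figure D1:**
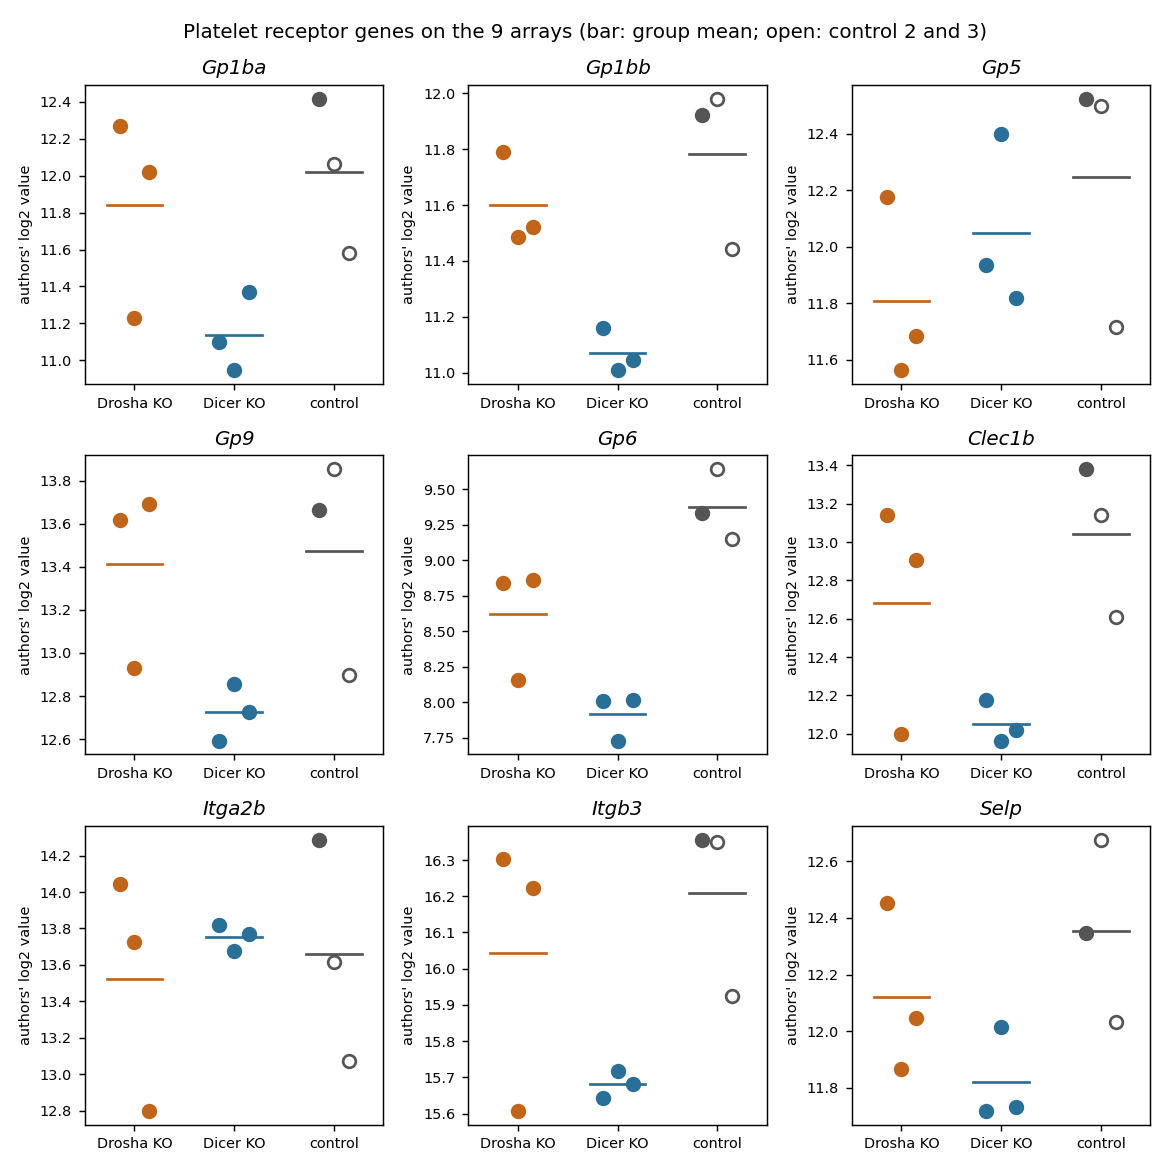
Authors' log2 value of each receptor gene (vertical axis, a separate scale for each gene) on the Drosha KO, Dicer KO and control arrays. Each point is 1 array, bars are group means, and open points are control 2 and control 3. In 7 of the 9 panels all Dicer KO points lie below all control points, and control 3 is the lowest control in every panel.

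Of the glycoprotein Ib-IX-V complex, Gp1ba encodes the chain that binds von Willebrand factor. It read 12.27, 11.23 and 12.02 on the Drosha KO arrays, 11.10, 10.95 and 11.37 on the Dicer KO arrays, and 12.42, 12.06 and 11.58 on the control arrays. Every Dicer KO array lay below every control array, while Drosha KO arrays spanned from below the controls to within them. The difference for Dicer KO against control was -0.88 (SE 0.293, adjusted p = 0.176), a 1.84-fold lower level, and that for Drosha KO was -0.18 (adjusted p = 0.706).

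Gp1bb encodes the small chain that is disulfide-linked to the Gp1ba product. It read 11.79, 11.49 and 11.52 in Drosha KO, 11.16, 11.01 and 11.05 in Dicer KO, and 11.92, 11.98 and 11.44 in control arrays. Here the Dicer KO arrays were below both other groups without overlap. The difference was -0.71 for Dicer KO against control (SE 0.164, adjusted p = 0.139) and 0.53 for Drosha KO against Dicer KO (95% interval 0.16 to 0.90, adjusted p = 0.608). Gp1bb overlaps Septin5 in the RefSeq gene table, so the probe read for it is shown with that of Itga2b further on.

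Gp9 encodes the chain that the complex needs to reach the cell surface. It read 13.62, 12.93 and 13.69 in Drosha KO, 12.59, 12.86 and 12.73 in Dicer KO, and 13.66, 13.86 and 12.90 in control arrays. The highest Dicer KO array was only just under the lowest control, control 3. Dicer KO differed from control by -0.75 (SE 0.276, adjusted p = 0.188) and Drosha KO from control by -0.06 (adjusted p = 0.906).

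Gp5 encodes the loosely attached chain of the complex, which thrombin cleaves. It read 12.18, 11.56 and 11.69 in Drosha KO, 11.93, 12.40 and 11.82 in Dicer KO, and 12.52, 12.50 and 11.72 in control arrays. All 3 groups overlapped, and Drosha KO had the lowest mean. Its difference was -0.20 for Dicer KO against control (adjusted p = 0.672) and -0.44 for Drosha KO against control (adjusted p = 0.304), and the interval for Drosha KO against Dicer KO ran from -0.84 to 0.36.

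Both receptors that signal through Syk, glycoprotein VI and the Clec1b product, had the largest differences of the 9 genes in Dicer KO. Gp6 encodes the platelet collagen receptor. It read 8.84, 8.16 and 8.86 in Drosha KO, 8.01, 7.73 and 8.01 in Dicer KO, and 9.33, 9.64 and 9.15 in control arrays. No 2 groups overlapped, which was so for Gp6 alone among the 9. The Dicer KO level was 2.75-fold lower than control (difference -1.46, SE 0.214, adjusted p = 0.118) and ranked 14 by unadjusted p among all genes tested. Drosha KO was 1.69-fold lower than control (difference -0.75, SE 0.214, adjusted p = 0.11) and 0.70 above Dicer KO (95% interval 0.22 to 1.19, adjusted p = 0.586).

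Clec1b encodes the receptor for podoplanin. It read 13.14, 12.0005 and 12.91 in Drosha KO, 12.17, 11.96 and 12.02 in Dicer KO, and 13.38, 13.14 and 12.61 in control arrays. The Dicer KO arrays were tightly grouped below the controls, and Drosha KO 2 stood among them. Dicer KO was 1.99-fold lower than control (difference -0.99, SE 0.296, adjusted p = 0.165). Clec1b shares its locus with Clec12b in the RefSeq table, and its 3 probes gave Dicer KO differences of -1.25, -0.99 and -0.99. In the same order they gave Drosha KO differences of -0.63, -0.56 and -0.36 from control, the last being the probe that stood for the gene.

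Itga2b and Itgb3, which encode the chains of the fibrinogen receptor, did not show the same pattern. Itgb3 read 16.30, 15.61 and 16.22 in Drosha KO, 15.64, 15.72 and 15.68 in Dicer KO, and 16.36, 16.35 and 15.93 in control arrays, so that all Dicer KO arrays were below all controls. Its Dicer KO difference was -0.53 (SE 0.1997, adjusted p = 0.191). Itga2b read 14.04, 13.73 and 12.80 in Drosha KO, 13.82, 13.68 and 13.77 in Dicer KO, and 14.29, 13.61 and 13.07 in control arrays. For Itga2b the Dicer KO arrays sat inside the span of the controls, and the difference was 0.10 (95% interval -0.71 to 0.90, adjusted p = 0.891). Against control 1 alone the Itga2b difference had the opposite sign, -0.53, so its direction depends on which controls are used. Itgb3 also pairs with another alpha chain, encoded by Itgav.

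Selp encodes P-selectin, which tethers platelets to white blood cells. It read 12.45, 11.87 and 12.05 in Drosha KO, 11.72, 12.01 and 11.73 in Dicer KO, and 12.35, 12.68 and 12.03 in control arrays. Dicer KO 2 was just under control 3, and the other Dicer KO arrays were clearly below all controls. The Dicer KO difference was -0.53 (SE 0.205, adjusted p = 0.195) and the Drosha KO difference was -0.23 (adjusted p = 0.48). Of the 8 endothelial markers listed, Kdr, Tek, Tie1 and Plvap were well above background on all 9 arrays, Emcn on 6, Cldn5 on 5, and Cdh5 and Sox17 on 1 each. The 5 of them that were tested summed on the linear scale to between 10716 and 15468 in Drosha KO, 9162 and 11292 in Dicer KO and 5248 and 10145 in control arrays. Most of that sum was Kdr, which averaged 13.42 in Drosha KO, 13.12 in Dicer KO and 12.24 in control arrays. The median difference of the 5 from control was -0.19 in Drosha KO and -0.16 in Dicer KO, opposite in sign to that of Kdr. The part of these markers in the Selp differences was not tested.

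Counted over the 9 genes, 8 differences for Dicer KO against control were below 0, beside 50.2% of those of all genes, and 7 had an unadjusted p under 0.05 in that direction, against 9.12% of all genes tested. That count of 7 was 3 without control 1, where 42.9% of all genes had such a p in either direction, 4 without control 2 (10.1%), and 4 without Dicer KO 1 (15.3%) or Dicer KO 3 (16.2%). The median difference of the 9 genes was -0.71, beside -0.0016 for all genes. For Drosha KO against control all 9 differences were below 0, as were 50.3% of those of all genes, but the median was only -0.18, beside -0.0021 for all genes. In that comparison 0 of the 9 were called, with 0.169% called among all genes. Gp6 was the one member with an unadjusted p under 0.05 and with ranges that did not overlap, which 11.5% and 10.5% of all genes showed in the lower direction. Without control 3, 3 of the 9 had an unadjusted p under 0.05, beside 13.5% of all genes in either direction. These comparisons share the control arrays, so they are not independent of each other.

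The difference between Drosha KO and Dicer KO does not include the control values, but its errors and p-values pool the spread of all 3 groups. None of the 9 genes was called there, with 0.0565% called among all genes, and the adjusted p ranged from 0.586 to 0.999. Drosha KO read lower than Dicer KO in 2 of the 9 genes, beside 49.3% of all genes, and higher in 7, with a median difference of 0.53 beside 0.0035 for all genes. For Gp1bb, Gp9 and Gp6 every Drosha KO array was above every Dicer KO array, as for 8.62% of all genes, and 4 genes had an unadjusted p under 0.05, against 3.23% of all genes. That count was 2 without Drosha KO 1 (4.23% of all genes in either direction), Drosha KO 3 (6.16%) or Dicer KO 1 (4.48%), and 6 without Drosha KO 2 (4.84%). The F test for any difference among the 3 groups called 0 of the 9, with 0.0912% called among all genes and a smallest adjusted p of 0.0934, for Gp6, and 5 of the 9 had an unadjusted p under 0.05, beside 22% of all genes. For the F test that count was 2 without control 1 (43.4% of all genes), control 2 (9.82%) or Dicer KO 2 (16%). It was 3 without Drosha KO 3 (21.2%), Dicer KO 1 (16.9%) or Dicer KO 3 (18.4%), and 8 without control 3 (9.62%).

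**Figure D2:**
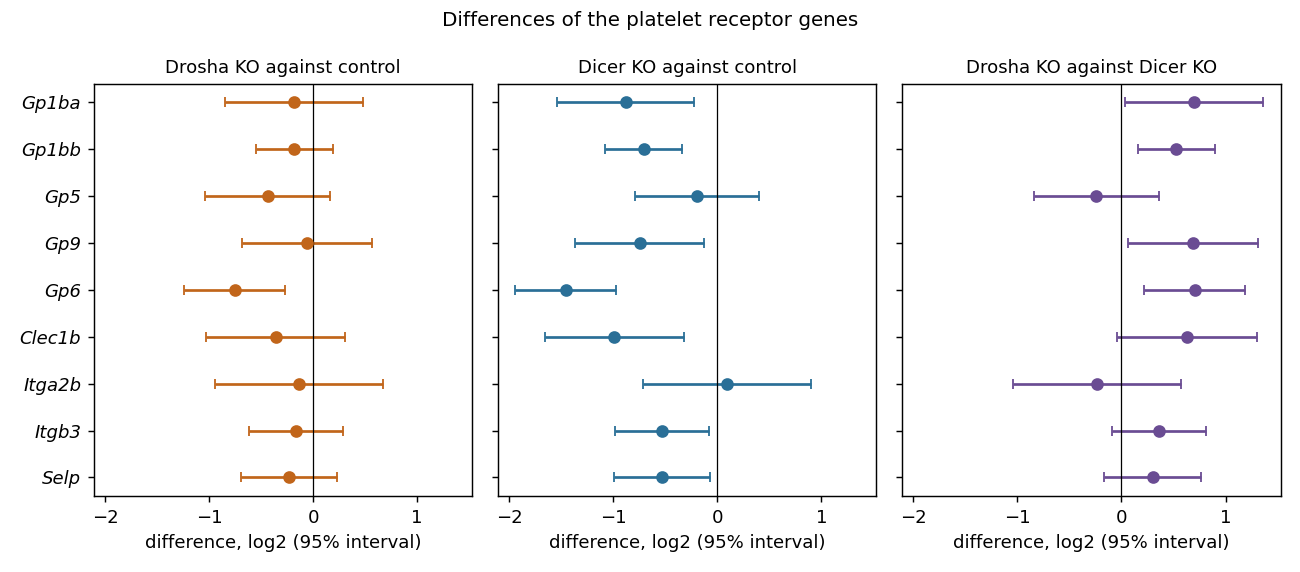
Difference in log2 value of each receptor gene (horizontal axis) for Drosha KO against control, Dicer KO against control and Drosha KO against Dicer KO. Points are limma differences over 3 arrays a group and lines are 95% intervals, unadjusted. In the middle panel 7 intervals lie below 0, and those of Gp5 and Itga2b cross it.

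How far the groups separated depended on single arrays. Control 3 was the lowest control for 9 of 9 genes, and Drosha KO 2 the lowest Drosha KO array for 8 of 9. Averaged over the 9 genes, the arrays deviated from the overall mean by 0.37, -0.31 and 0.05 log2 units in Drosha KO, by -0.35, -0.34 and -0.35 in Dicer KO, and by 0.54, 0.50 and -0.10 in control. In this average the Dicer KO arrays lay closer together than those of the other groups. For Gp5 the Dicer KO arrays were hardly closer together than the Drosha KO arrays, with an SD of 0.31 and 0.32, beside 0.46 in control.

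Without control 2, the Dicer KO arrays were below the remaining controls for 7 of 9 genes (11.6% of all genes). Leaving out control 3, whose scanner file is the one from slide 2, they were below for 8 of 9 (11.4% of all genes), and the median difference was -0.88. The array behind the control 2 column is not given, so this need not be a comparison within slide 1. Set against control 1 alone, the Dicer KO arrays were below for 9 of 9 (21.3% of all genes). For Drosha KO the count was 1 of 9 without control 2, 4 of 9 without control 3 and 7 of 9 against control 1 alone, where the shares of all genes were 12.3%, 12.1% and 21.5%. Leaving out Drosha KO 2, the Drosha KO arrays were above all Dicer KO arrays for 7 of 9 genes (13.3% of all genes). With control 1 left out, limma called Gp6 and Gp1bb for Dicer KO and Gp6 for Drosha KO, but it then called 30.5% and 33.6% of all genes in those comparisons.

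In the scanner signal, scaled to the 75th percentile of each array, the choice of arrays mattered most. With all 9 arrays Gp6 was the only receptor gene below every control in Dicer KO. Its spot on control 2 had been left out as non-uniform, so it was set against 2 controls. The share with all 9 arrays was 1.94% of 19864 genes, and the share with control 2 left out for every gene was 10.4%. With all 9 arrays the median of all genes was itself shifted by 0.29 in Dicer KO against control. Without control 2, 7 of 9 receptor genes were again below every control (10.4% of all genes). The Dicer KO differences then ran from -1.49 for Gp6 to -0.0076 for Itga2b. The 9 differences between Drosha KO and Dicer KO had the same signs in both sources.

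**Figure D3:**
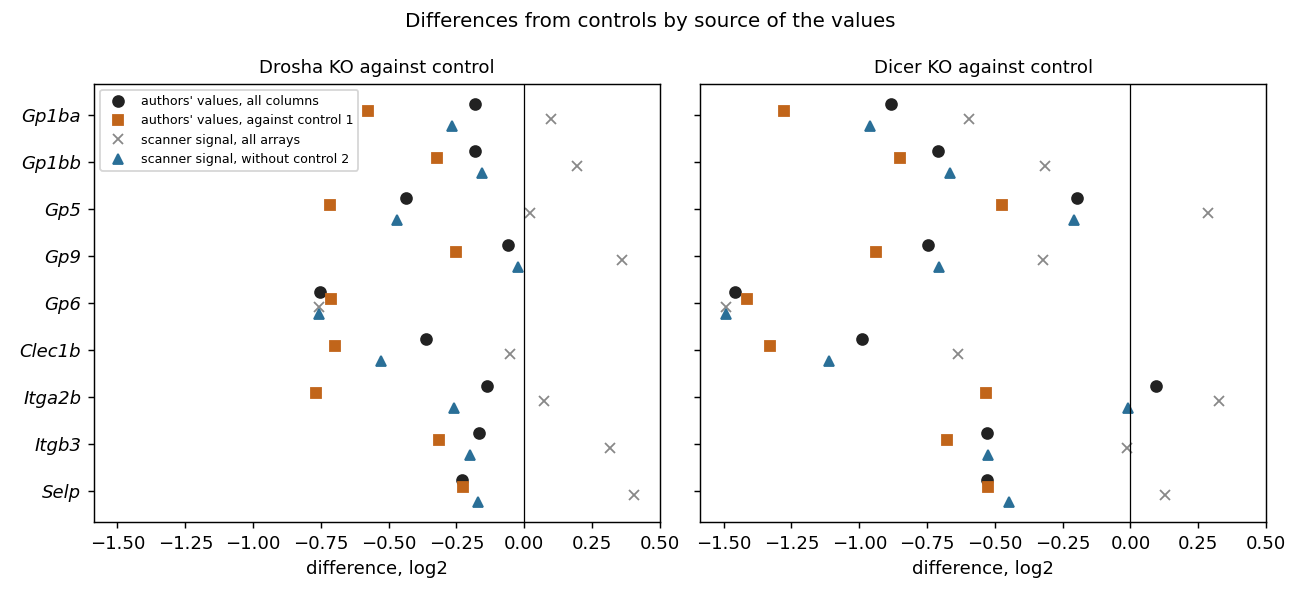
Differences in log2 units (horizontal axis) for Drosha KO against control on the left and Dicer KO against control on the right, by source of the values. Circles are the authors' values with all columns, squares the authors' values against control 1, crosses the scanner signal of all arrays and triangles the scanner signal without control 2. The crosses lie to the right of the triangles for 8 of the 9 genes and coincide with them for Gp6.

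Most of the receptor genes varied together from array to array, with Itga2b and in part Gp5 apart. Over the 9 columns the 36 pairs of genes had Pearson r between -0.0961 and 0.977 with a median of 0.82, and with group means removed the median was 0.736. Clec1b and Itgb3 were the closest pair (0.977, and 0.958 within groups), followed by Gp1ba with Clec1b (0.967). Itga2b correlated with Gp9 at 0.000711 and with Itgb3, whose product it binds, at 0.0427, and its highest value was 0.562, with Gp5. With group means removed, Itga2b correlated at 0.679 with Gp1bb and at 0.584 with Gp5. Over all columns Gp5 correlated at 0.376 with Gp1ba, 0.406 with Gp1bb and 0.339 with Gp6. These 9 columns share group differences and array effects, so the values describe this set of arrays.

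Among the genes most like the mean of the 9 receptors, of 16019 with a current symbol and over the same 9 columns, were Clu (r = 0.970), Tmie (0.948), Alox12 (0.946), Olfr266 (0.942) and Ly6g6f (0.927). Ppbp, which encodes a platelet chemokine, was the closest single gene to Gp1ba (0.947), Gp1bb (0.952) and Clec1b (0.972). It was Palld for Gp5 (0.940), Sytl4 for Gp9 (0.923), Nlrx1 for Itga2b (0.952) and Tmie for Itgb3 (0.964).

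Markers of the megakaryocyte lineage stood in the same order of groups as most of the receptors. All 13 on the list, 3 of which are also among the other surface receptors described further on, were well above background on all 9 arrays, and none was called. In Dicer KO 12 of 13 were below control, beside 50.2% of all genes, and 9 had an unadjusted p under 0.05 in that direction, beside 9.12%, with a median difference of -0.49, and in Drosha KO the median was -0.28. Ppbp averaged 13.56 ± 0.21 in Dicer KO and 14.93 ± 0.44 in control arrays (SD, n = 3 each, difference -1.37, adjusted p = 0.132). Gata1, the lineage's transcription factor, differed by -0.49 (adjusted p = 0.165) and Pf4, another platelet chemokine, by -0.41 (adjusted p = 0.163). Summed on the linear scale the 13 markers ranged from 411780 to 518540 in Drosha KO, from 361660 to 429700 in Dicer KO and from 519190 to 587320 in control arrays, so by this sum both deletion groups lay below the controls, Drosha KO only just. By the mean deviation per gene Dicer KO, at -0.45 to -0.22, lay below control, at 0.14 to 0.60, but Drosha KO, at -0.36 to 0.17, overlapped control. Their part in the receptor differences was not tested, and in these bulk samples fewer megakaryocytes and less receptor RNA per megakaryocyte cannot be told apart.

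Other lineages were compared on some of the same measures. The 9 neutrophil markers summed to between 856330 and 1185600 in Drosha KO, 388930 and 1082700 in Dicer KO and 556730 and 1088800 in control arrays. Erythroid markers ranged from 15975 to 20627, from 15487 to 28553 and from 17166 to 30536 in the same groups. Mast cell and basophil markers overlapped in all 3 groups as well. The erythroid sum rested mostly on Car2, the brightest gene of that list. In Drosha KO 0 of 9 neutrophil markers (median difference 0.38) and 2 of 8 erythroid markers (median 0.26) were below control, beside 50.3% of all genes. In Dicer KO 5 of 9 (median -0.0085) and 4 of 8 (median 0.035) were below control, beside 50.2%. Mean deviations of the 9 monocyte and macrophage markers ran from -0.41 to -0.22 in Drosha KO, from -0.50 to 0.33 in Dicer KO and from -0.0047 to 0.58 in control arrays, so the Drosha KO arrays were below the controls by that measure. By the linear sum Drosha KO, at 51333 to 64204, lay within control, at 44150 to 77230, and Dicer KO ranged from 56650 to 77665. In Drosha KO 1 of these 9 markers was called, beside 0.169% of all genes. Medians for the 8 stem and progenitor markers were -0.16 in Drosha KO and -0.12 in Dicer KO against control. The 5 endothelial markers tested had medians of -0.19 and -0.16, and the 4 lymphoid ones 0.54 and 0.30, in the same comparisons.

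**Figure D4:**
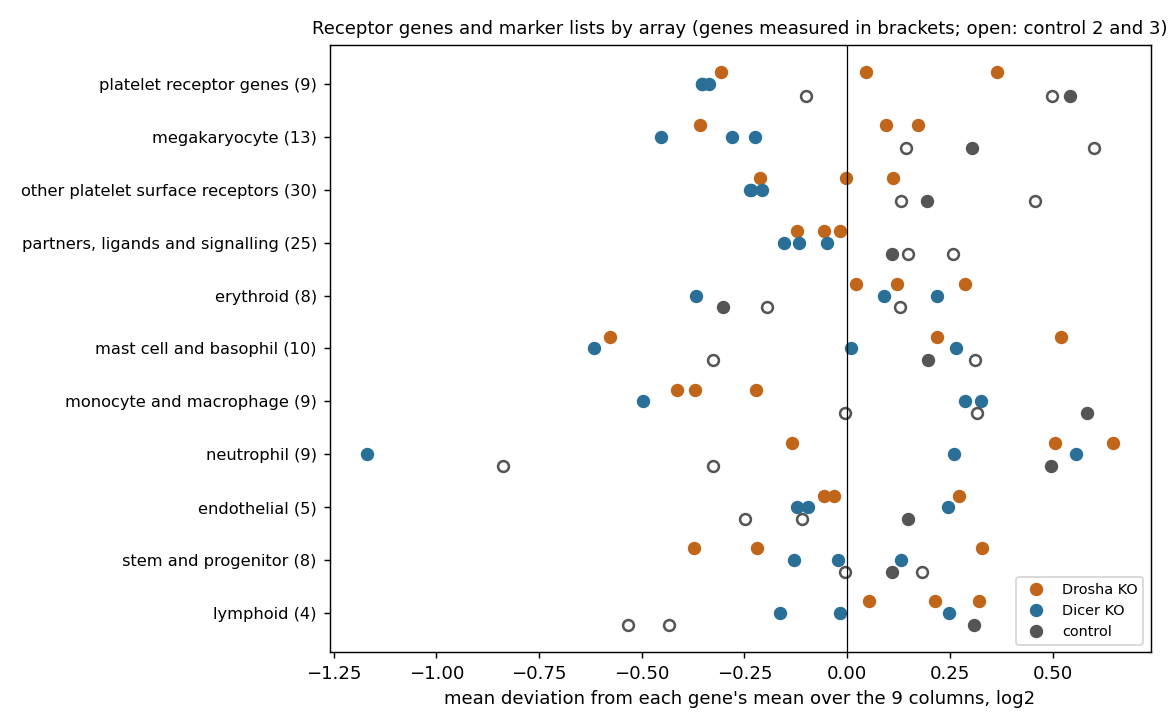
Mean deviation of each gene list from its genes' means over the 9 columns, in log2 units (horizontal axis), for the receptor genes and 10 other lists, with the number of genes measured in brackets. Each point is 1 array, Drosha KO above Dicer KO above control within a list, and open points are control 2 and control 3. In the 4 platelet-related lists at the top every Dicer KO point lies left of every control point. Every Drosha KO point does so too for the partners, ligands and signalling list and, only just, for the other platelet surface receptors.

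Another 30 platelet surface receptors were measured, and none was called in any comparison. In Dicer KO 27 of the 30 were below control, 16 with an unadjusted p under 0.05, and the median was -0.46, while 50.2% and 9.12% of all genes met these criteria. In Drosha KO 22 were below control, 10 with an unadjusted p under 0.05 and a median of -0.23, where the shares of all genes were 50.3% and 11.5%. Adra2a, the adrenaline receptor of platelets, averaged 8.35 ± 0.54 in Drosha KO, 8.26 ± 0.39 in Dicer KO and 9.72 ± 0.37 in control arrays, differences of -1.37 (adjusted p = 0.0879) and -1.45 (adjusted p = 0.131) from control. Itga2, a chain of a second collagen receptor, was lower by 0.43 and 0.64 log2 units in Drosha KO and Dicer KO (adjusted p = 0.106 and 0.118). Its means there were dim, 6.18 and 5.97, below the array medians of 6.36 to 6.38. It was well above background on 8 arrays, so the size of its difference is uncertain. The tetraspanin gene Cd9 differed by -0.68 in Dicer KO (adjusted p = 0.14). Cd151, another tetraspanin gene, went the other way in Drosha KO, 0.56 above control (adjusted p = 0.0916) and 0.68 above Dicer KO (adjusted p = 0.232). The ADP receptor gene P2ry12 had the next smallest adjusted p between the deletions (0.98 higher in Drosha KO, adjusted p = 0.294), followed by the ATP receptor gene P2rx1 (0.37 higher, adjusted p = 0.715). P2ry12 was also dim in Dicer KO, with a mean of 6.25.

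Of the receptors' partners, ligands and signalling proteins, 25 of 27 listed genes were tested. Pdpn, which encodes podoplanin, the ligand of the Clec1b product, was the one called. It averaged 6.31 ± 0.12 in Drosha KO, 6.12 ± 0.36 in Dicer KO and 8.06 ± 0.33 in control arrays, and fell by 1.75 (adjusted p = 0.0243) and by 1.94 (adjusted p = 0.0496) log2 units against control. Its means in both deletion groups were dim, below the array medians of 6.36 to 6.38. Pdpn was well above background on 8 arrays, so the size of its fall is uncertain. The Dicer KO value was only just under the threshold, and Pdpn is not reported under the alternatives. Vwf, the ligand of the Gp1ba product, read 14.62, 14.02 and 14.66 in Drosha KO, 14.54, 14.47 and 14.40 in Dicer KO and 15.33, 15.22 and 14.85 in control arrays. Neither deletion group overlapped the controls for Vwf, with differences of -0.70 (adjusted p = 0.108) and -0.67 (adjusted p = 0.165). Fcer1g, the signalling partner of glycoprotein VI, differed by 0.03 in Drosha KO and -0.16 in Dicer KO (adjusted p = 0.94 and 0.686), with all groups overlapping. Selplg, which encodes the P-selectin ligand of white blood cells, differed by 0.24 and 0.17 (adjusted p = 0.507 and 0.676). The medians over the 25 genes were -0.15 in Drosha KO and -0.21 in Dicer KO.

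The probes read for Gp1bb and Itga2b are given by their positions on the genome, and they were not placed on exons. The Gp1bb probe lies on the strand of its own gene. The strand of Septin5 was not compared, so this does not separate the overlapping genes. The Itga2b probe, read for the member that stood apart, has its 60 bases spread over 209 bases of the genome, so it crosses an intron. Both are printed 5′ to 3′ with mm9 positions from the array files.
Gp1bb, chr16:18621107-18621166, minus strand: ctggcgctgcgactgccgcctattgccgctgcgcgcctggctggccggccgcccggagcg
Itga2b, chr11:102319453-102319661, minus strand: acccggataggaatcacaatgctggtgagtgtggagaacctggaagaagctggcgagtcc

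Because most of the 9 genes varied together, their promoters were searched for letters that transcription factors of the lineage are known to bind. The 250 bases upstream of each start were taken from RefSeq on GRCm38.p6 and were found for 8 of the 9 genes. Both strands were searched for AGATAA and AGATAG, bound by GATA factors, and for CAGGAA and CCGGAA, bound by ETS factors, and no matches overlapped. A GATA match was present in 3 of the 8 windows, beside 16.5% of 32851 promoter windows in the table, an ETS match in 2 of 8, beside 35.1%, and both in 1 of 8, beside 5.4%. The 4 windows with a match are printed below in the gene's direction, with matches in capitals on either strand. A match is a description of letters and not of a bound site.
Gp1ba, chr11:70638872-70639121, plus strand: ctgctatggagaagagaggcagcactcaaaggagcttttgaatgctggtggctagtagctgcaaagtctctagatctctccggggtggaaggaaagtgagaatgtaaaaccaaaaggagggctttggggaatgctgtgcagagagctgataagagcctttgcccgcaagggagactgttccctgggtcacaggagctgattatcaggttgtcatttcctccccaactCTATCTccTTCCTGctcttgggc
Gp5, chr16:30310782-30311031, minus strand: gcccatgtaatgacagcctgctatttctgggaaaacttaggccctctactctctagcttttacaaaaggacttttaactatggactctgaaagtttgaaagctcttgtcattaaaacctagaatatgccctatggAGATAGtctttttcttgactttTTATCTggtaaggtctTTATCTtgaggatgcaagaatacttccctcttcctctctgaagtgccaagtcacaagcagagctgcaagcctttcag
Gp6, chr7:4397745-4397994, minus strand: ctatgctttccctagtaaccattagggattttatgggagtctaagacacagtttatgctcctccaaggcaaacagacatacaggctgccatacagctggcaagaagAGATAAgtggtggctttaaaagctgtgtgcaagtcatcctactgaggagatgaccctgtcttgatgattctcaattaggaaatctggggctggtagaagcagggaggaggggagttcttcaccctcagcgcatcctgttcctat
Itga2b, chr11:102469884-102470133, minus strand: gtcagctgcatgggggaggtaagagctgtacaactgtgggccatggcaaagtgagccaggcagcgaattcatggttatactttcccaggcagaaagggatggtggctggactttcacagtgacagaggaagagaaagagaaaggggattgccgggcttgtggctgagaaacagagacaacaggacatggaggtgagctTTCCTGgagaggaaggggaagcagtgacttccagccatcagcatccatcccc
Gp1ba had its GATA match 23 to 18 bases and its ETS match 15 to 10 bases before the start. Gp5 had 3 GATA matches, and Gp6, with the largest Dicer KO difference of the 9, had 1 GATA match. Gp5 and Itga2b, whose Dicer KO arrays overlapped the controls, had 3 GATA matches and 1 ETS match. Gp1bb, Gp9, Clec1b and Selp had none of the searched letters in this window. Other forms of the GATA letters were not searched, such as TGATAA, which the Gp1ba and Clec1b windows hold. The counts therefore cover the searched letters only.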

How the data were processed

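RNA of cultured LSK cells was measured on 9 one-colour Agilent arrays (design 028005), grouped by the sample titles. The deposited scanner files hold Cy3 intensity, which per the file headers came from Agilent's Feature Extraction software, version 10.7.3.1 and protocol GE1_107_Sep09. The series values deposited by the authors are log2 intensities, nearly equal in quantiles between columns. The submitters' processing notes name limma without a version, and the background step is not given in the sources used here.

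Series rows were matched to probes by feature number. The filter kept 31490 of 55681 probes, those that on all arrays of 1 or more groups were well above background, and the probe with the highest mean stood for its gene. Of all probes, 26413 were named by accession, 3859 by symbol, 735 by synonym and the rest by the file's own name. Groups were compared in limma 3.58.1 under R 4.3.3 (data.table version 1.17.8), with 3 group means over 9 arrays, two-sided moderated tests, Benjamini-Hochberg adjustment over all genes tested and 0.05 as the threshold. The fit was tested on simulated data. Precision is limited by having 3 arrays a group.

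The 9 genes, the lists and the rule for naming genes were chosen with earlier results of these data known. Named were all 9 receptor genes, Drosha and Dicer1, the list genes past the threshold or otherwise the 3 with the smallest adjusted p in a comparison, the direct ligands and partner, and for likeness the 6 genes closest to the mean of the receptors and 1 for each receptor. Some genes that the rule names are not reported here. Vwf, Ppbp, Gata1 and Pf4 were described as markers or ligands. Alternatives were the scanner signal under several normalisations, the dim-probe filter, the mean over probes, slide and replicate blocks, fits of 2 groups and each array left out, and after seeing the data a block for control 2 and control 3.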

Additional observations from a re-analysis of the deposited data

How the results depend on the processing

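Under every alternative but 1 none of the 9 genes was called, in any of the comparisons or the F test. The exception was the fit without control 1: over the fits that left out each array in turn, 0 to 1 genes were called for Drosha KO against control, 0 to 2 for Dicer KO against control, 0 to 0 for Drosha KO against Dicer KO and 0 to 2 by the F test. Without control 1, limma's adjusted p was 0.0435 for Gp6 in Drosha KO (-0.78), and 0.028 for Gp1bb (-0.64) and 0.00401 for Gp6 (-1.48) in Dicer KO, with 33.6% and 30.5% of all genes called in these comparisons and 29.9% by the F test. With the replicate block, 0 genes were called in each comparison. Deviations from the group means correlated at -0.276 to 0.239 for samples of the same number and at -0.294 to 0.282 for other pairs, so the numbers do not pair the samples. With the slide as a block 0 genes were called, and each lone array of a fit is taken to vary like the other groups.

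Signs turned for 34 differences, the cause was not tested, and none of these differences was past the threshold. For Drosha KO against control the scanner signal gave 0.10 for Gp1ba, 0.20 for Gp1bb, 0.023 for Gp5, 0.36 for Gp9, 0.073 for Itga2b, 0.31 for Itgb3 and 0.41 for Selp. With normexp it gave 0.075 for Gp1bb, 0.16 for Gp9, 0.11 for Itgb3 and 0.28 for Selp, and with quantile normalisation 0.10, 0.18, 0.063 and 0.31 for the same genes. Without control 2 the quantile-normalised signal gave 0.11 for Gp9. In the authors' values it was 0.016 for Gp1ba, 0.038 for Gp9 and 0.18 for Itga2b without control 1, 0.13 for Gp9 without control 2, 0.12 for Gp1ba, 0.18 for Gp9 and 0.053 for Itgb3 without Drosha KO 2, and 0.23 for Itga2b without Drosha KO 3, and over all fits that left out 1 array it ranged from -0.40 to 0.12 for Gp1ba, -0.35 to 0.18 for Gp9, -0.43 to 0.23 for Itga2b and -0.31 to 0.053 for Itgb3. For Dicer KO against control the scanner signal gave 0.28 for Gp5 and 0.13 for Selp, normexp 0.087 for Gp5, and quantile normalisation 0.14 for Gp5 and 0.0087 for Selp. Itga2b gave -0.0076 in the scanner signal without control 2, -0.20 with the slide as a block, -0.20 without control 3 and -0.53 with control 2 and control 3 as a block. Over the fits that left out 1 array, Itga2b ranged from -0.20 to 0.41 for Dicer KO against control and from -0.49 to 0.13, without Drosha KO 3, for Drosha KO against Dicer KO. The scanner signal of all arrays shifted the median of all genes by 0.28 in Drosha KO and 0.29 in Dicer KO against control.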

Other observations

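Genes with more than 1 probe gave a check within the array. The other Gp1bb probes had Dicer KO differences of -0.71, at a mean log2 value of 7.64, and -0.29, at 6.31, and the last of these was well above background on 8 of 9 arrays. The second Itgb3 probe differed by -0.65 in Dicer KO, beside -0.53 for the first. Selp was spotted 10 times on each array, and its spots varied by an SD of 0.134 to 0.186 log2 units within an array. Between the arrays of a group its SD was 0.30 in Drosha KO, 0.17 in Dicer KO and 0.32 in control.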
